A study of Mus musculus with 4 samples.

Results

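The MyD88 and NF-kappaB signalling genes were examined in preparations of Langerhans cells, which are epidermal antigen-presenting cells, from mouse ears treated with Vaseline or imiquimod. The set holds 37 genes, listed by symbol, of 55487 rows in the count table; each symbol matched a single row, and all 37 passed the filter on low counts. Total RNA of isolated Langerhans cells was sequenced in 4 libraries, 2 from ears given Vaseline (the negative control) and 2 from ears given imiquimod, an agonist of Toll-like receptor 7 that produces a psoriasis-like skin inflammation when applied topically. All mice were wild type; the dose and the duration of treatment, the age of the mice and the way the cells were isolated are not given in the sources used here. Whether replicate libraries stand for different mice is not in the labels; p-values therefore measure only how these samples vary, which could be technical variation. The descriptions carry 1 letter code for both Vaseline libraries and a code of its own for each imiquimod library, with no stated meaning; if these codes mark batches, batch and treatment cannot be told apart.

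Toll-like receptor 7 sits in endosomes and signals through the adaptor MyD88, which assembles IRAK kinases and the ubiquitin ligase TRAF6. These activate the kinase TAK1 and then the IkappaB kinase (IKK) complex, which marks IkappaB proteins for destruction and frees NF-kappaB dimers to enter the nucleus. Several genes that NF-kappaB switches on encode inhibitors of the same route, among them the IkappaB proteins and the ubiquitin-editing enzyme A20, so their transcripts are often read together with those of the activators.

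Library totals ran from 14902782 to 76028955 counts, and the imiquimod libraries were the shallower ones. Reads spread at a low level over genes with little known use in skin, measured as the median over olfactory and vomeronasal receptor genes, came to 0.377 CPM (counts scaled to the library total) for each kilobase of exon in Vaseline 1, 0.0913 in Vaseline 2, 0.526 in imiquimod 1 and 1.26 in imiquimod 2. This level is called the background below. The 10 Langerhans cell markers, led by Cd74, Mfge8, H2-Ab1 and Cd207 (langerin), were present in every library, with a summed level of 21407 and 37941 CPM with Vaseline and 8316 and 12274 CPM with imiquimod; each of the 10 was lower in both imiquimod libraries, and none passed the test. Markers of keratinocytes, which surround Langerhans cells, summed to 17558, 13634, 16780.1 and 8448 CPM in the same order. In imiquimod 1 this sum exceeded that of the Langerhans cell markers. Markers of activated keratinocytes summed to 329.8, 501, 1482 and 1117 CPM. In these sums S100a8 had 0.718, 5.74, 15.9 and 84.4 CPM, and S100a9 had 0.718, 19.3, 38.6 and 266 CPM. Neutrophil markers were highest in imiquimod 2, at 207 CPM against 34.1 in imiquimod 1 and 15.01 and 12.03 with Vaseline. S100a8, which the activated keratinocyte list also holds, is among them, and without it the sums were 122, 18.2, 14.3 and 6.29. Of the 10 neutrophil markers, 6 lay under 5 times the background. Monocyte and macrophage markers were also highest in imiquimod 2, at 443 against 179, 275 and 242 CPM, and 4 of these 10 lay under 5 times the background. The part these cells had in the values below was not tested, and in such bulk samples fewer cells of a type and less RNA per cell cannot be told apart.

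The comparison asks how the signalling genes of Langerhans cell preparations differ between imiquimod and control ears. Levels are CPM scaled with TMM factors, and each fold change is the log2 ratio of imiquimod over Vaseline relative to the median of the tested genes above background (mean level per exonic kilobase at least 5 times the mean background), called the relative log2 fold change. No signalling gene passed the edgeR quasi-likelihood test at an adjusted p of 0.05 (Benjamini-Hochberg over 39439 genes), where the test called 0.00507% of all tested genes higher and 0.00254% lower with imiquimod. These were 3 genes in all, Commd1b and Gm28967 higher and F830045P16Rik lower, named after their values were seen. At an unadjusted p under 0.05, 1 signalling gene (2.7%) differed, Irak3, against 8.92% of tested genes above background and 6.64% of all tested genes. DESeq2 called 1 signalling gene, lower, and limma-voom 1, higher, as given below. Data were simulated with the spread fitted to these libraries, but with a background that did not differ between them. Among genes above background, the edgeR test there recovered 0 of 15 genes changed 2-fold, 7 of 24 changed 4-fold and 9 of 13 changed 8-fold. In that setting, changes of the size seen here were mostly not detectable with 2 libraries a group.

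The relative log2 fold changes of the 37 genes ran from -0.68 for Nfkbie to 1.21 for Irak3, with a median of 0.15; 27 of them lay within 0.5 of 0 on this scale. The median over all tested genes, 39439 against 11206 above background, was 1.13, and over tested genes above background it is 0 by definition. In 10 signalling genes (27%) both imiquimod libraries were above both Vaseline libraries, and in 4 (10.8%) both were below; among all tested genes above background the shares were 21.3% and 23.5%, and among all tested genes 44.3% and 7.61%. On the log2 scale the difference between the group means exceeded the difference between replicates of either group in 9 genes (24.3%), against 31.0% of the genes above background with a count in every library. These 9 were Irak3, Tnfaip3, Traf6, Bcl3, Slc15a4, Nfkbiz and Traf2, higher with imiquimod, and Cyld and Tab2, lower. Without a test of the list these counts only describe it.

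**Figure D1:**
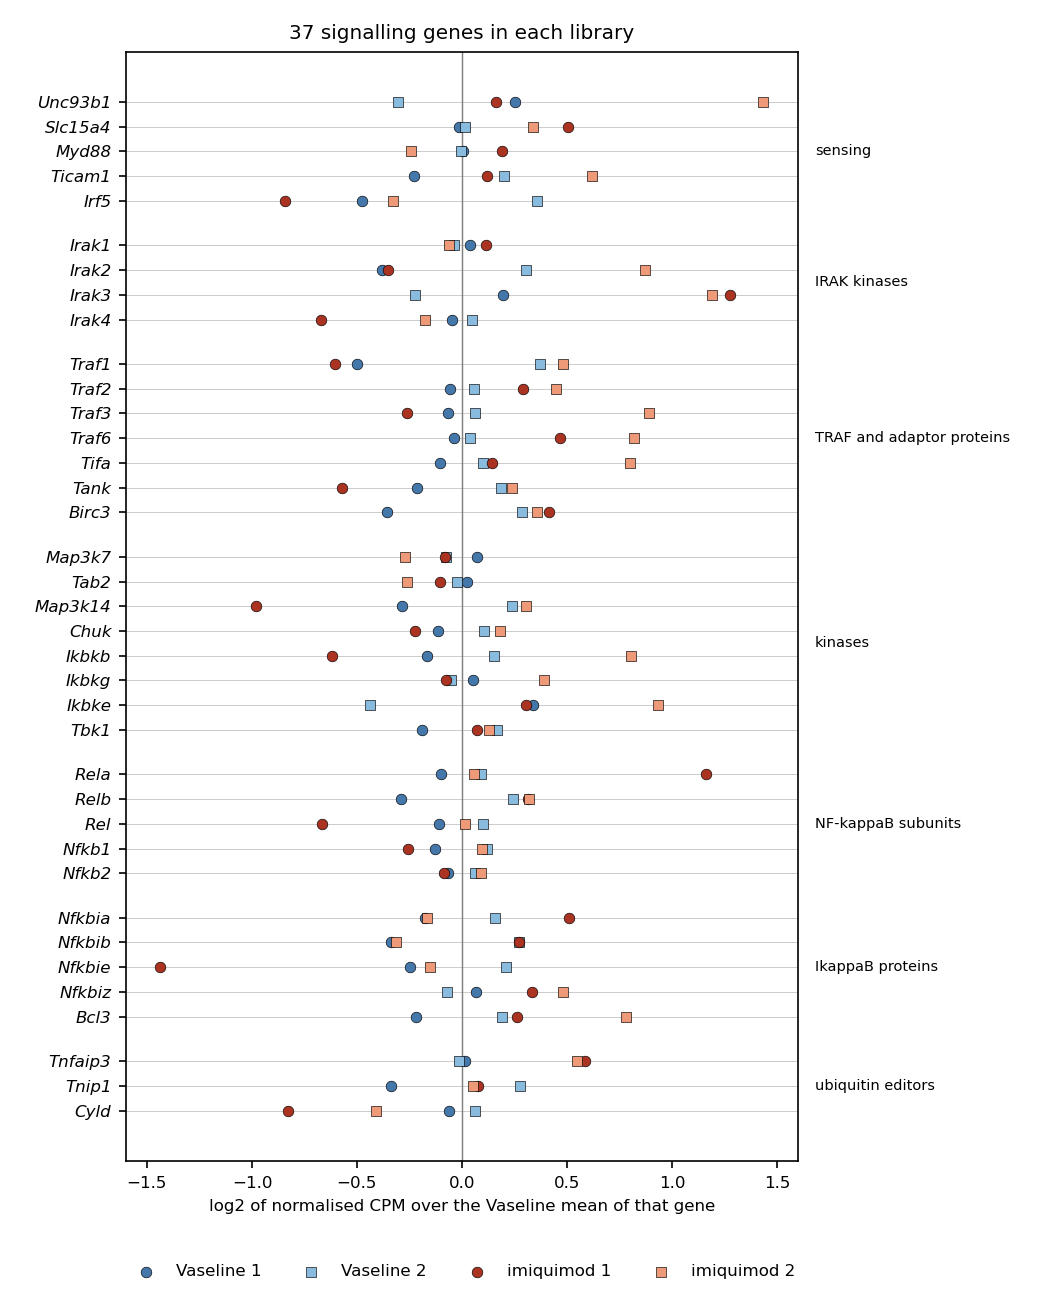
Level of each of the 37 signalling genes in each library, as log2 of the normalised CPM over the mean of the Vaseline libraries for that gene (x axis); circles are library 1 and squares library 2 of each group, and genes are arranged by role. Irak3 and Tnfaip3 have both imiquimod points close together and above the Vaseline points, while Rela, Nfkbie and Map3k14 have imiquimod 1 far from the other libraries.

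The sensing genes act at the endosomal receptor and its adaptors. Unc93b1 escorts Toll-like receptors 3, 7 and 9 to endosomes, and it had 15.7 and 10.7 CPM with Vaseline, 14.7 in imiquimod 1 and 35.5 in imiquimod 2. Only imiquimod 2 stood apart, and the groups overlapped (relative log2 fold change 0.91, SE 0.49, edgeR adjusted p = 0.614). With a library left out, 1 library stands for its group and is assumed to vary like the other group, so a gene that passes there shows nothing on the spread within imiquimod. Without imiquimod 1, so with the higher library alone, Unc93b1 passed by edgeR (adjusted p = 0.0480), where 1.95% of genes were called higher; without imiquimod 2 its value was 0.20. Slc15a4, a histidine and peptide transporter of endolysosomes that Toll-like receptor 7 signalling requires, had 41.4 and 42.3 CPM with Vaseline and 59.3 and 53.0 with imiquimod. Its groups did not overlap, with a relative log2 fold change of 0.40 (SE 0.31).

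Myd88, the adaptor itself, had 59.1 and 58.8 CPM with Vaseline, against 67.3 and 49.8 with imiquimod. The Vaseline values lay between the imiquimod values, and the relative log2 fold change of -0.032 (SE 0.32) was small beside its error. Ticam1, which encodes TRIF, the adaptor of Toll-like receptor 3, had 19.2, 25.9, 24.5 and 34.6 CPM in the same order. Irf5, a transcription factor that MyD88 activates beside NF-kappaB, had 96.1 and 171 CPM with Vaseline against 74.3 and 106 with imiquimod. For Irf5 the Vaseline libraries differed by more than the group means did (relative log2 fold change -0.59, SE 0.36, edgeR adjusted p = 0.614).

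Among the IRAK kinases, Irak3 had the largest relative log2 fold change and the smallest p of the 37 genes. Irak3 (ENSMUSG00000020227; GRCm38 chromosome 10, 120141648 to 120202130, minus strand) encodes IRAK-M, a member of the family with no effective kinase activity that restrains Toll-like receptor signalling and is made chiefly by monocytes and macrophages. It had 28.6 CPM in Vaseline 1 and 21.4 in Vaseline 2, against 60.5 in imiquimod 1 and 57.1 in imiquimod 2. Both imiquimod values lay near each other and above both Vaseline values, a 2.35-fold difference of the means (25 ± 5.06 against 58.8 ± 2.38 CPM, SD, n = 2 each). The relative log2 fold change was 1.21 (SE 0.33), and the edgeR quasi-likelihood test gave an unadjusted p of 0.00270 and an adjusted p of 0.577. It passed by limma-voom (adjusted p = 0.0426), which called 0.852% of genes higher. With the spread taken from the Vaseline libraries alone, edgeR gave an adjusted p of 0.0215 without imiquimod 1 (1.95% of genes called higher) and 0.00163 without imiquimod 2 (1.03% called higher). With any library left out its relative value stayed between 1.01 and 1.40. Of the 10 monocyte and macrophage markers, 2 were higher in both imiquimod libraries and 0 lower, where the shares of all tested genes were 44.3% and 7.61%. Of the 6 such markers above background, 1 was higher and 0 lower, where the shares of genes above background were 21.3% and 23.5%. C1qb had 20.5 and 14.6 CPM with Vaseline and 33.7 and 60.6 with imiquimod, whereas Lyz2 (12.3 CPM) and Mrc1 (6.43 CPM) were lowest in imiquimod 1; the part of such cells in the Irak3 value was not tested. Background reads were an estimated 4.70% and 1.66% of the Irak3 count with Vaseline and 3.02% and 8.52% with imiquimod, and taking them away gave a relative log2 fold change of 1.32.

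Irak4, the kinase that binds MyD88 and starts the cascade, was lower in both imiquimod libraries. Its levels were 18.7 and 19.9 CPM with Vaseline and 12.1 and 17.1 with imiquimod, so that the groups did not overlap, but its relative log2 fold change of -0.43 was smaller than its SE of 0.44. The background was an estimated 20.3% and 39.0% of its counts in imiquimod 1 and 2, and without it the value was -0.72 (edgeR adjusted p = 0.728). Irak1, the kinase that IRAK4 phosphorylates, had 64.8, 61.6, 68.3 and 60.5 CPM in the 4 libraries and was the steadiest of the family. Irak2, a kinase of the later response, had 57.2 and 92.1 CPM with Vaseline and 58.4 and 136 with imiquimod, so that the groups overlapped and replicates of each differed widely.

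Ratios within a library do not depend on the scaling between libraries, and per exonic kilobase the ratio of Irak3 to Irak4 was 2.09 and 1.47 with Vaseline and 6.83 and 4.57 with imiquimod. This pair was chosen after its values were seen, and 39.0% of the Irak4 count in imiquimod 2 is estimated background. Irak3 made up 20.4% and 13.3% of the summed IRAK level per exonic kilobase with Vaseline and 35.3% and 24.8% with imiquimod. The share of Irak4 was 9.73% and 9.07% against 5.17% and 5.42%.

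**Figure D2:**
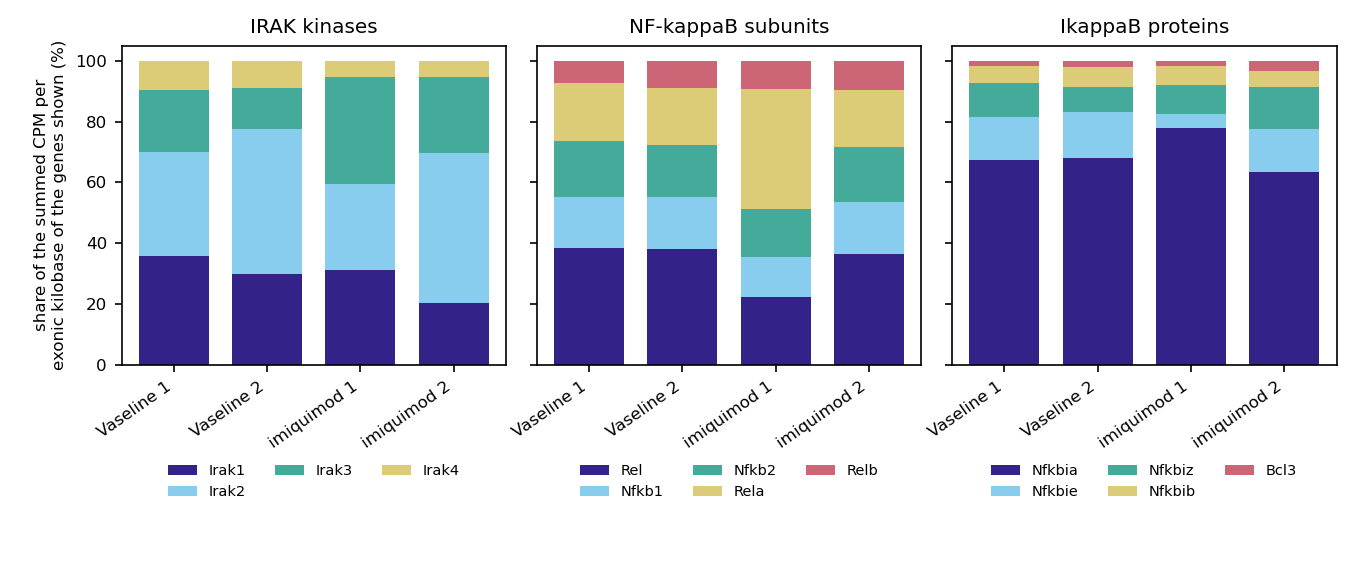
Share of each gene in the summed CPM per exonic kilobase of its family (y axis, percent) in each of the 4 libraries, for the IRAK kinases, the NF-kappaB subunits and the IkappaB proteins. The Irak3 segment is larger in both imiquimod libraries, whereas the Rela segment is larger and the Rel and Nfkbie segments smaller in imiquimod 1 alone.

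Of the 7 TRAF and adaptor genes, 4 had imiquimod libraries above the Vaseline libraries and 0 had them below, where the shares were 21.3% and 23.5% of genes above background and 44.3% and 7.61% of all tested genes; 1 of the 4, Tifa, lay under 5 times the background. Traf6, the ubiquitin ligase that MyD88 and the IRAK kinases engage, had 42.0 and 44.2 CPM with Vaseline and 59.5 and 76.1 with imiquimod. The Vaseline values were close, and both imiquimod values were higher. On the log2 scale the difference between the group means exceeded the difference between replicates of either group (relative log2 fold change 0.63, SE 0.31, unadjusted p = 0.0594, adjusted p = 0.614 by edgeR). Traf2, an adaptor of tumour necrosis factor receptors, had 23.1 and 25.02 against 29.4 and 32.8 CPM. Birc3, which encodes the ubiquitin ligase cIAP2 and is itself induced by NF-kappaB, had 63.2 and 98.8 CPM against 108 and 104; its imiquimod libraries lay just above Vaseline 2. Tifa, a TRAF6-binding adaptor, was the lowest of the 37 genes, with 5.35 and 6.17 against 6.36 and 10.0 CPM, of which the background was an estimated 42.3% in imiquimod 2.

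The other TRAF genes overlapped between groups. Traf3, which holds back the non-canonical route, had 38.9 CPM in imiquimod 1 and 86.5 in imiquimod 2, on either side of 44.6 and 48.7 with Vaseline. Traf1, an NF-kappaB target, and Tank, a partner of TBK1 differed more within groups than between them, at 75.8 and 139 CPM with Vaseline against 70.6 and 149 with imiquimod for Traf1 and 55.4 and 72.9 against 43.1 and 75.6 for Tank.

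The 8 genes of the kinases and their partners, those of the non-canonical and interferon routes included, had relative log2 fold changes from -0.22 to 0.63. Their median was 0.024. Both imiquimod libraries were above the Vaseline libraries for 0 of the 8 and below them for 2. The shares were 21.3% and 23.5% of genes above background and 44.3% and 7.61% of all tested genes. Map3k7, which encodes TAK1, had 75.6 and 68.3 CPM with Vaseline and 68.0 and 59.5 with imiquimod, and Tab2, its ubiquitin-binding partner, had 127 and 123 against 116 and 105. Both were lower with imiquimod without overlap, by relative log2 fold changes of -0.20 (SE 0.30) and -0.20 (SE 0.30), each smaller than its error. The catalytic IKK subunits behaved unlike each other across libraries: Chuk (IKK-alpha) stayed between 46.1 and 61.0 CPM, whereas Ikbkb (IKK-beta) had 152 and 189.6 CPM with Vaseline and 111 and 299 in imiquimod 1 and 2. The imiquimod libraries thus bracketed the Vaseline libraries for Ikbkb. Its regulatory partner Ikbkg (NEMO) had 27.3, 25.4, 25.01 and 34.5 CPM.

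Map3k14, which encodes NIK, the kinase that starts the non-canonical route, had 114 and 164 CPM with Vaseline and 70.2 and 171 in imiquimod 1 and 2, so that its lowest and its highest value were both from imiquimod. Ikbke and Tbk1 encode the kinases that act on interferon regulatory factors. Ikbke was at 26.8 and 15.7 CPM with Vaseline and 26.2 and 40.6 with imiquimod (relative log2 fold change 0.63, SE 0.41), with an estimated background share of 29.5% in imiquimod 2. Tbk1 stayed between 62.0 and 79.5 CPM in all 4 libraries.

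**Figure D3:**
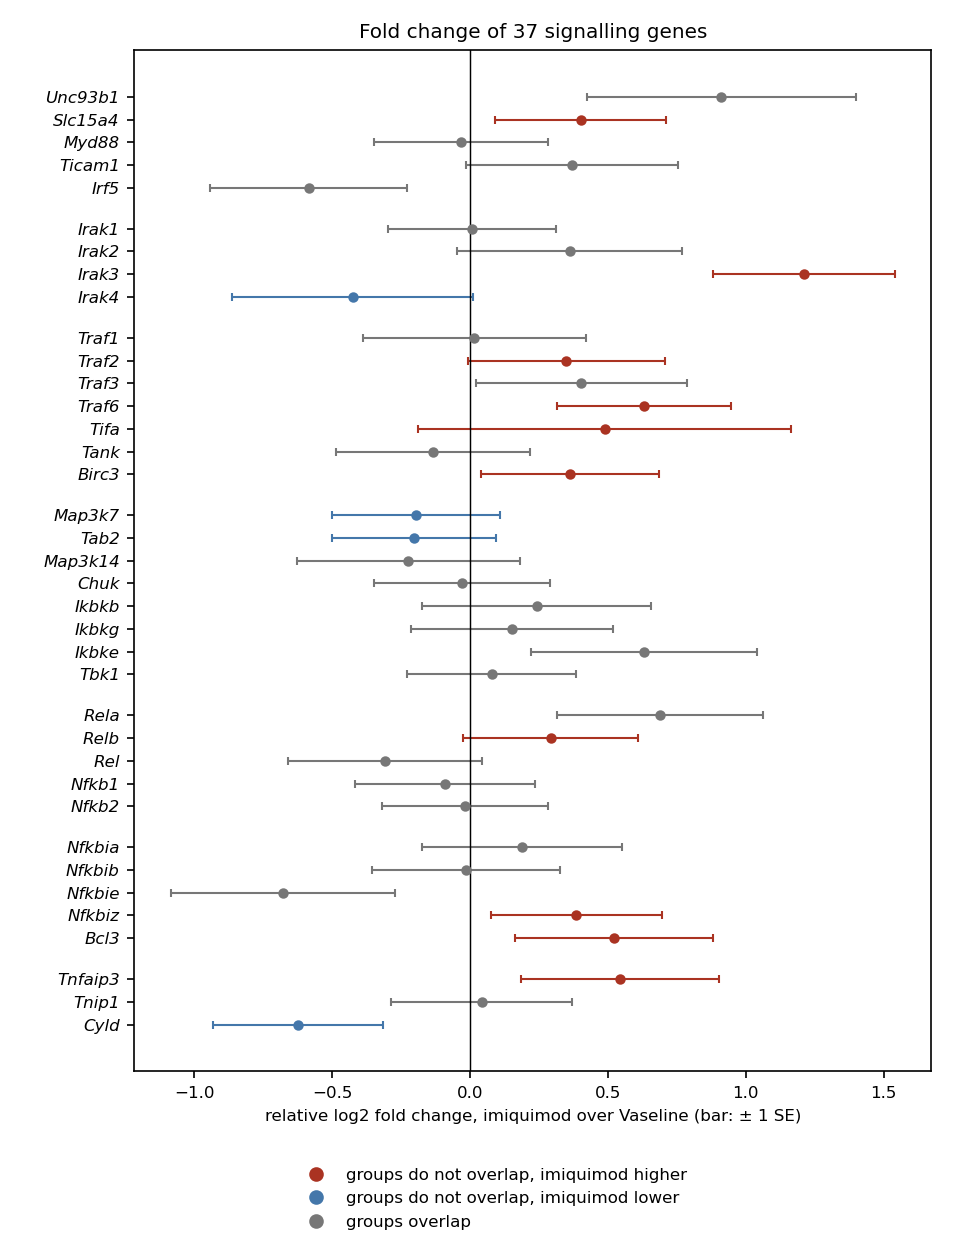
Relative log2 fold change of imiquimod over Vaseline for each of the 37 signalling genes (x axis; points with bars of 1 SE from the edgeR quasi-likelihood fit, 2 libraries a group), arranged by role; red and blue mark genes whose imiquimod libraries both lie above or below the Vaseline libraries, grey those that overlap. Irak3 lies farthest to the right at 1.21, Nfkbie farthest to the left at -0.68, and 27 of the 37 points lie within 0.5 of 0.

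Per exonic kilobase Rel (c-Rel, the subunit of lymphoid and myeloid cells) was the highest NF-kappaB subunit in 3 of the 4 libraries, at 75.8 and 87.8 CPM with Vaseline and 82.7 in imiquimod 2. In imiquimod 1 Rela (p65) was the highest, at 90.8 against 51.6 CPM for Rel. In the other libraries Rela (37.9, 43.3 and 42.2 CPM) lay near Nfkb2 (p100, the precursor of p52; 36.6, 39.95 and 40.7) and Nfkb1 (p105, the precursor of p50), and Relb was the lowest in every library. Nfkb2 and Nfkb1 were among the steadiest of the 37 genes: Nfkb2 had 168 and 183 CPM with Vaseline and 165 and 187 with imiquimod, and Nfkb1 had 401, 475, 367 and 468. Their relative log2 fold changes were -0.018 (SE 0.30) and -0.092 (SE 0.33). Relb, the partner of p52, had 55.5 and 80.4 CPM with Vaseline and 84.4 and 84.7 with imiquimod, without overlap but closer to Vaseline 2 than the Vaseline libraries were to each other.

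Rela differed in 1 library. It had 116 and 133 CPM with Vaseline, 279 in imiquimod 1 and 129.6 in imiquimod 2, which lay among the Vaseline values. Its relative log2 fold change of 0.69 (SE 0.37, edgeR adjusted p = 0.614) thus rested on imiquimod 1: without that library it was 0.057, and without imiquimod 2 it was 1.19. There imiquimod 1 is the sole imiquimod library and the spread comes from Vaseline alone, and the edgeR adjusted p was 0.00875, with 1.03% of genes called higher. Rel was lowest in the same library, with 566 and 655 CPM with Vaseline and 385 and 617 in imiquimod 1 and 2. The ratio of Rela to Rel per exonic kilobase was 0.5 and 0.493 with Vaseline and 0.510 in imiquimod 2, but 1.76 in imiquimod 1, a pair chosen after its values were seen. In imiquimod 1 the 13 mitochondrial protein-coding genes were lowest, at 3542 CPM in sum against 8202 in imiquimod 2 and 7649.8 and 8763 with Vaseline. All mitochondrial genes together, ribosomal RNA included, took 5.49% of counts there and 5.14% in imiquimod 2, against 7.23% and 7.92% with Vaseline. Activated keratinocyte markers were highest in imiquimod 1, and the part of either in the Rela value was not tested.

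IkappaB proteins hold NF-kappaB dimers in the cytoplasm, and their genes are known targets of NF-kappaB. Nfkbia, which encodes IkappaB-alpha, had the highest level per exonic kilobase of the 37 genes, a mean of 444 CPM. Its levels were 585 and 739 CPM with Vaseline and 942 and 591 with imiquimod, so that imiquimod 2 lay within the Vaseline range (relative log2 fold change 0.19, SE 0.36). Nfkbib, which encodes IkappaB-beta, had 64.8, 98.9, 98.7 and 65.9 CPM, the pairs crossing between groups.

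Nfkbie (ENSMUSG00000023947; chromosome 17, 45555703 to 45563169, plus strand) encodes IkappaB-epsilon, an inhibitor that acts on c-Rel and p65 dimers, and had the most negative relative log2 fold change, -0.68 (SE 0.41, edgeR adjusted p = 0.614). It had 230.4 and 316 CPM with Vaseline, 101 in imiquimod 1 and 246 in imiquimod 2, which lay within the Vaseline range. Without imiquimod 1 the value was -0.15, and without imiquimod 2 it was -1.41. That fit has imiquimod 1, the library that stands apart, as its sole imiquimod library, with the spread from Vaseline alone, and gave an edgeR adjusted p of 0.00396, where 1.67% of genes were called lower. DESeq2 called it lower on all 4 libraries (adjusted p = 0.0396), with size factors under which the median gene above background was at -1.01; DESeq2 called 6.42% of the genes it gave an adjusted p lower.

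The atypical, mainly nuclear family members Nfkbiz and Bcl3 both had imiquimod libraries above Vaseline libraries. Nfkbiz encodes IkappaB-zeta, a co-activator of secondary response genes such as Lcn2 in myeloid cells and of the IL-17 response in keratinocytes. It had 302 and 274 CPM with Vaseline and 363 and 401 with imiquimod (relative log2 fold change 0.39, SE 0.31). Bcl3, which binds p50 and p52 homodimers, had 24.2 and 32.2 against 33.8 and 48.3 CPM, with imiquimod 1 just above Vaseline 2 (relative log2 fold change 0.52, SE 0.36). Neither passed (edgeR adjusted p = 0.614 for both). Activated keratinocyte markers were also higher in both imiquimod libraries, and their part in these values was not tested.

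The ubiquitin editors differed among themselves. Tnfaip3 (ENSMUSG00000019850; chromosome 10, 19000910 to 19015657, minus strand) encodes A20, the main feedback inhibitor of the IKK complex, and was the most abundant of the 37 transcripts in counts. It had 1128 and 1106 CPM with Vaseline and 1674 and 1634 with imiquimod. Replicates lay close together in both groups (1117 ± 15.3 against 1654 ± 28.1 CPM, SD, n = 2 each), a 1.48-fold difference of the means with a relative log2 fold change of 0.54. The SE was 0.36, and the edgeR adjusted p was 0.614. With any library left out the relative value stayed between 0.52 and 0.62, and the background was under 1% of its count in every library.

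Cyld (ENSMUSG00000036712; chromosome 8, 88697028 to 88751945, plus strand) encodes a deubiquitinase that removes lysine-63 and linear ubiquitin chains from the same complexes. It had 118 and 129 CPM with Vaseline and 69.5 and 93.1 with imiquimod, both below the Vaseline libraries (relative log2 fold change -0.62, SE 0.31, unadjusted p = 0.0747, adjusted p = 0.614 by edgeR). Tnip1, which encodes ABIN1, an adaptor of A20, had 219 and 335 CPM with Vaseline on either side of 292 and 287 with imiquimod. Per exonic kilobase the ratio of Tnfaip3 to Cyld was 16.6 and 14.9 with Vaseline and 41.9 and 30.6 with imiquimod, again a pair chosen after its values were seen; the ratio shows unequal levels and not which gene differed.

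The kappaB consensus, the sequence that NF-kappaB dimers bind, was searched on both strands in RefSeq promoter windows (GRCm38.p6; 250 bases before to 50 bases after each start), which matched 32 of the 37 genes by symbol (not Ikbkb, Nfkb1, Nfkbiz, Relb and Unc93b1). A match was present in a window of 13 of these 32 genes (40.6%), against 9.55% of all 27025 genes with a window, and in 19 of 45 windows (42.2%) against 8.46% of all windows. Windows of the same gene overlap in part, and the set was chosen for its place in this pathway. The 250 bases before the start are shown for the 6 genes that hold a match there and have no exonic base in that stretch, in the direction of transcription with matches in capitals (overlapping matches run together). For the Tnip1 and Tank windows shown, no annotated transcript holds the bases after the RefSeq start.
Nfkbia, chr12:55492648-55492897, minus strand: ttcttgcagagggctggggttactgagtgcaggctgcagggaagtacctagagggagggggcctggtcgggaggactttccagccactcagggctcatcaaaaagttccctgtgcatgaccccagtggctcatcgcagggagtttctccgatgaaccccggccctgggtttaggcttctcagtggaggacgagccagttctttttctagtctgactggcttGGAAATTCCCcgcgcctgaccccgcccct
Nfkbie, chr17:45555450-45555699, plus strand: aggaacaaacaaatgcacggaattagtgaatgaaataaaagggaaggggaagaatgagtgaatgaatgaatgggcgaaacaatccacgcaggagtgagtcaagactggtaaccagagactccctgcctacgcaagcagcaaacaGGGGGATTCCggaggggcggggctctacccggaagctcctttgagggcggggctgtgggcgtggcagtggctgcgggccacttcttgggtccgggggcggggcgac
Cyld, chr8:88696778-88697027, plus strand: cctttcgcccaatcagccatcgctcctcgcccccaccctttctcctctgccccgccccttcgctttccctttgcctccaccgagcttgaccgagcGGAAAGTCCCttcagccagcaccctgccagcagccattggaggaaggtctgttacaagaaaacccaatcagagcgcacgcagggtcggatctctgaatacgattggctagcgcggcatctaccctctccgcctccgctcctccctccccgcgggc
Tnip1, chr11:54962941-54963190, minus strand: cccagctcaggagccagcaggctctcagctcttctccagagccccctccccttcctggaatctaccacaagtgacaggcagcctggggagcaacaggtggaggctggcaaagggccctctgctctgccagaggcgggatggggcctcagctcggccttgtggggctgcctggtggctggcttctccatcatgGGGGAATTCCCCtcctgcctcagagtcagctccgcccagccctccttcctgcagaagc
Tank, chr2:61578307-61578556, plus strand: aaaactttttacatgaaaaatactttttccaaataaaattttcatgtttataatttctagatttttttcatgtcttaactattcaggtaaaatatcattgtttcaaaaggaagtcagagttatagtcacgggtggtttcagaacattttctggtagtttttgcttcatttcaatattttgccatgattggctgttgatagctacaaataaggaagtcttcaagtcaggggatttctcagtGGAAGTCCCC
Traf3, chr12:111166120-111166369, plus strand: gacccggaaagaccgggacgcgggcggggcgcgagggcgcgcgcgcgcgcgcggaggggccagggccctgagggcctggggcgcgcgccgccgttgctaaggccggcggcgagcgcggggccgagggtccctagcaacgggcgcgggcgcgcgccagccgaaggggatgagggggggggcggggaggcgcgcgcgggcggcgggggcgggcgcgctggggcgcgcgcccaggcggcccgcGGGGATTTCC
The relative log2 fold changes of these genes were 0.19 for Nfkbia, -0.68 for Nfkbie, -0.62 for Cyld, 0.042 for Tnip1, -0.13 for Tank and 0.40 for Traf3. Tnfaip3 and Nfkb2 hold matches too, in windows of which 110 and 250 of the 250 bases before the RefSeq start lie in exons of GENCODE vM21, so these are not shown. Over the 13 genes with a match the median was 0.0059, with a range from -0.68 to 0.54, and over the 19 without one it was 0.15. Neither of the windows of Irak3 held a match, and neither did those of Rela and Traf6. An AP-1 element (TGANTCA) was present in the windows of 6 genes, Ikbke, Ikbkg, Nfkb2, Nfkbie, Tank and Tnfaip3, against 8.97% of all genes, and an interferon-stimulated response element in Myd88 alone, against 3.99%. A match describes these letters only.

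Of the 37 genes, 36 were at 5 times the background or more. The estimated background share of a count was highest in imiquimod 2, where it ran from 0.364% for Nfkbia to 42.3% for Tifa, and lowest in Vaseline 2, where it was 5.51% at most, for Ikbke. Above 20% in imiquimod 2 were Tifa, Irak4, Ikbkg, Ikbke and Traf2. Imiquimod 2 was the highest library for 18 of the 37 genes and imiquimod 1 for 8. Exons of other genes covered 10% or more of the exonic bases of 4 members, at most 18.1% for Nfkb2, and none of those of 23; the strand setting of the counting is not given, so reads of such neighbours cannot be told apart.

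**Figure D4:**
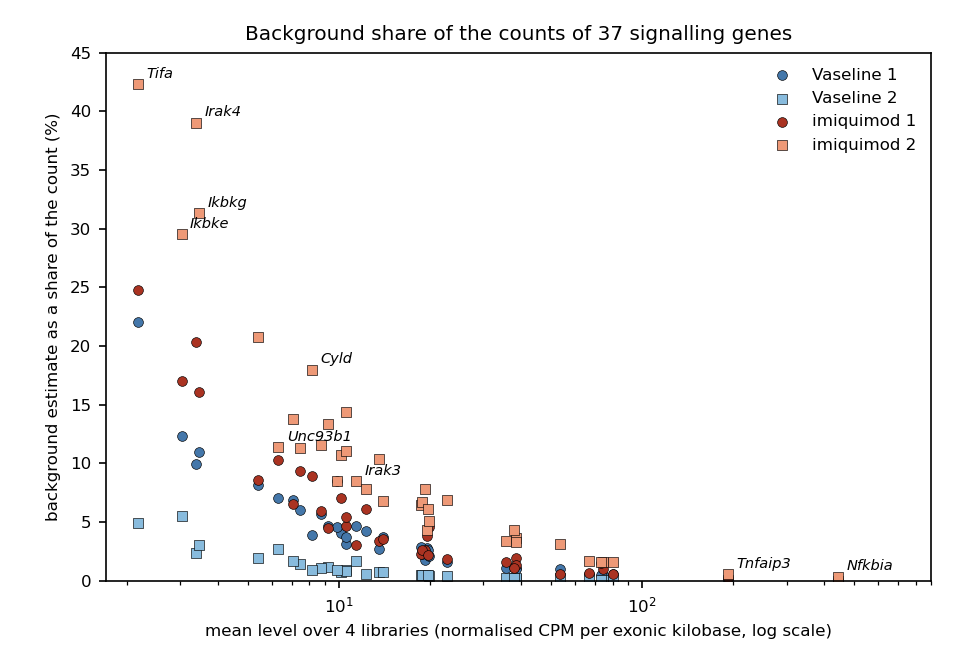
Estimated background as a share of the count (y axis, percent) against the mean level per exonic kilobase (x axis, log scale) for the 37 signalling genes, 1 point per gene and library. Shares are largest in imiquimod 2 and reach 42.3% for Tifa, while Tnfaip3 and Nfkbia lie under 1% in every library.

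Of 44 other genes of the pathway, 43 were found and tested; 0 passed by edgeR, and at an unadjusted p under 0.05 there were 2 higher with imiquimod and 2 lower. With DESeq2 0 of them passed as higher and 2 as lower, and with limma-voom 1 and 2. Over all genes DESeq2 called 6 higher and 667 lower of the 10383 that it gave an adjusted p. The numbers for limma-voom were 336 and 202 of 39439. The median relative log2 fold change of the 43 other pathway genes was 0.015. Of these, 12 were higher and 7 lower in both imiquimod libraries, where the shares of all tested genes were 44.3% and 7.61%. Of the 35 above background, 8 were higher and 7 lower, where the shares of genes above background were 21.3% and 23.5%. The other 8 lay under 5 times the background. Irf7, the interferon regulatory factor that Toll-like receptor 7 activates in dendritic cells, had 9.06 and 6.88 CPM with Vaseline and 42.5 and 44.4 with imiquimod, a relative log2 fold change of 2.42 (SE 0.39, edgeR adjusted p = 0.0877). The mean level of Tlr7 was 1.17 times the mean background, that of Tlr8 1.59 times and that of Tlr9 9.26 times. Tlr7 and Tlr8 thus lay under the bound of 5 times. Tlr7 had 3.06 and 1.38 CPM with Vaseline and 1.95 and 4.41 with imiquimod. Optn, a ubiquitin-binding adaptor of TBK1, had 21.9 and 22.6 against 42.6 and 45.3 CPM. Card9, an adaptor of C-type lectin receptors in myeloid cells, had 101 and 184 against 23.7 and 75.9 CPM, and Hsp90b1, the chaperone of Toll-like receptors, 509 and 949.6 against 352 and 364.

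Of 33 NF-kappaB target genes outside the set, 0 passed by edgeR, while at an unadjusted p under 0.05 imiquimod was higher for 14 and lower for 1; this held, in the higher direction, for 3.52% of genes above background and 5.0% of all tested genes. With DESeq2 1 of them passed as higher and 1 as lower, where it called 6 and 667 of the 10383 genes with an adjusted p. With limma-voom 8 and 1 passed, where it called 336 and 202 of 39439 genes. The median relative log2 fold change of the target genes was 1.07, beside 0.15 for the 37 signalling genes and 1.13 for all tested genes. Over the 28 target genes above background it was 0.65, beside 0.12 for the 36 signalling genes above background. The target list was written with earlier results of these data known. Ccl20, a chemokine that draws CCR6-bearing cells, had 5.84 and 8.91 CPM with Vaseline and 46.3 and 53.9 with imiquimod (relative log2 fold change 2.74, SE 0.40, edgeR adjusted p = 0.0574). Il1b had 97.7 and 216 against 579.8 and 1269 CPM, and Cxcl1, a neutrophil attractant, 23.8 and 33.0 against 99.9 and 109.9. Lcn2, which depends on IkappaB-zeta in myeloid cells, had 1.99 and 2.51 against 18.6 and 88.1 CPM (edgeR adjusted p = 0.0574). It stood at 2.07 and 10.0 times the background of the same library with Vaseline, and at 14.3 and 25.2 times with imiquimod. Keratinocytes, neutrophils and monocytes make several of these products as well, and the part of such cells, whose marker levels are given above, was not tested.

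**Figure D5:**
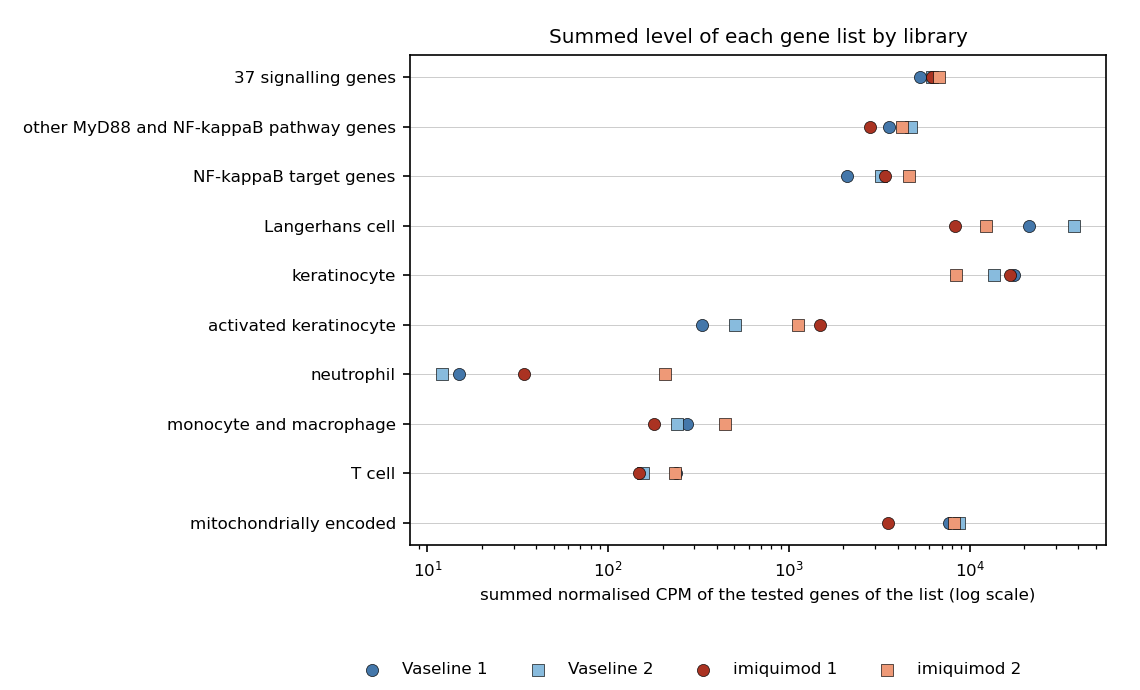
Summed normalised CPM of the tested genes of each list (x axis, log scale) in each library; circles are library 1 and squares library 2. The 37 signalling genes sum to between 5323 and 6785 CPM, whereas the Langerhans cell markers are lower, and the activated keratinocyte markers higher, in both imiquimod libraries. Neutrophil markers are highest in imiquimod 2, and 6 of the 10 lie under 5 times the background. Without S100a8 they sum to 18.2 CPM in imiquimod 1, against 14.3 and 6.29 with Vaseline.

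Summed over the set, the groups overlapped, at 5323 and 6218 CPM with Vaseline and 6186 and 6785 with imiquimod. By role, the sums of 5 of the 7 roles overlapped between groups, among them the NF-kappaB subunits (1307 and 1527 against 1281 and 1487 CPM) and the IkappaB proteins (1207 and 1460.1 against 1538 and 1352). Those of the ubiquitin editors (1465 and 1569.8 against 2035 and 2014) did not, and there Tnfaip3 supplied most of the sum. The sums of the IRAK kinases (169 and 195 against 199 and 271 CPM) did not overlap either, with Irak3 and, in imiquimod 2, Irak2 as the larger differences. Within groups, 27 of the 37 genes were higher in Vaseline 2 than in Vaseline 1 and 25 higher in imiquimod 2 than in imiquimod 1. The median absolute log2 difference between replicates was 0.24 with Vaseline and 0.46 with imiquimod.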

How the data were processed

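Counts per gene were measured in 4 libraries. Per the labels' protocols, a DirectZol kit yielded the RNA, and 10 to 70 ng of it entered a strand-preserving SMARTer Pico library kit for total RNA. The submitters' processing notes list Trimmomatic, HISAT2, SAMtools, StringTie and the build GRCm38; versions, annotation, strand setting and treatment of multi-mapped reads are not given in the sources used here. The deposited values are whole-number counts, not scaled to depth.

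Rows were matched to GENCODE vM21 by Ensembl ID (55227 of 55487 matched), which gave positions and exonic lengths. edgeR 4.0.16 (R 4.3.3) tested 39439 genes that filterByExpr kept (minimum count 10, minimum total 15) with the quasi-likelihood test, two-sided, with Benjamini-Hochberg adjustment. TMM factors came from the 11206 tested genes at 5 times the background or more, because the background, taken from 1768 receptor genes, differed 13.7-fold between libraries. Each SE is the fitted log2 fold change divided by the root of the F statistic. The fit was tested on simulated data in which the background did not differ between libraries. limma 3.58.1 and DESeq2 1.42.0 gave alternatives; overlaps used bedtools 2.31.1, tables and plots Python 3.11.15, numpy 2.4.6, pandas 2.3.3 and matplotlib 3.10.9. By the rule for named genes, all 37 are accounted for, with library levels where groups do not overlap or the p or level ranks among the first 10, and up to 4 genes of smallest p are named from each other list. Tlr7, Tlr8 and Tlr9 are named outside that rule. Members, lists and settings were chosen with earlier results of these data known. Replicates differed by more than sampling noise (chi-square per degree of freedom 95.1 with Vaseline and 88.1 with imiquimod), and each was counted as 1 sample.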

Additional observations from a re-analysis of the deposited data

How the results depend on the processing

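In 517 recalculations of the 37 genes under other settings, 483 kept their direction and their side of the threshold, and Irak3 (limma-voom) and Nfkbie (DESeq2) passed. The median of genes above background, to which values are relative, was 0.023 as reported, -0.74 with TMM on all genes, -1.005 with RLE, -0.39 with upper-quartile factors and 0.041 with library totals; before it is taken away, the median of the 37 genes was 0.18, -0.70, -0.96, -0.34 and 0.18 in that order. With 2 libraries a group, single genes near 0 have no settled direction; the cause of each move below was not tested.

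Genes called higher and lower, 2 and 1 as reported, were 3 and 5 with TMM on all genes, 5 and 6 with RLE, 1 and 1 with upper-quartile factors, 8 and 7 with totals, 10 and 5 with factors from genes at 10 times background, 1 and 1 with factors from a mean ratio of 5, 0 and 0 testing only genes above background, 6 and 667 with DESeq2, 336 and 202 with limma-voom, 27 and 21 without a filter, and 143 and 118 with at least 10 counts in every library. Leaving out a library gave 21 to 856 higher and 8 to 684 lower. Of the 37 genes, 1 was higher by limma-voom and 1 lower by DESeq2, and 0 to 2 higher and 0 to 1 lower without a library. Of other pathway genes, 1 was higher with factors at 10 times background, limma-voom, no filter and the strict filter, 2 were lower by DESeq2 and by limma-voom and 1 with the strict filter, and 0 to 2 higher and 0 to 1 lower without a library. Of target genes, higher were 2 with totals, 2 with factors at 10 times background, 1 by DESeq2, 8 by limma-voom, 4 without a filter, 7 with the strict filter and 1 to 13 without a library; lower were 1 by DESeq2, 1 by limma-voom and 0 to 2 without a library. The median of the 37 genes ran from 0.0095 to 0.32 without a library.

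The labels number the libraries within each group but do not tie numbers to animals or days, and same-numbered libraries did not deviate together (r = -0.15 above background). With a replicate block 76 genes were higher and 141 lower, none of the 37, with 1 other pathway gene higher and 1 lower and 6 target genes higher; Nfkb2 was at 0.014 and Nfkbib at 0.021. With the crossed pairing, chosen after seeing the data, 0 and 0 genes passed, with Nfkb2 at 0.013 and Nfkbib at 0.020; with the background subtracted, also chosen then, 0 and 0 passed, and Myd88 was at 0.061, Chuk 0.037, Nfkb1 0.046, Nfkb2 0.12 and Nfkbib 0.099.

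Direction also turned for Myd88 (0.025 with TMM on all genes, 0.036 with RLE, 0.017 with upper-quartile factors, 0.036 by DESeq2), Irak1 (-0.00097 without a filter), Traf1 (-0.22, -0.30 and -0.16 with TMM on all genes, RLE and upper-quartile factors, -0.0012 with totals, -0.015 with a mean ratio of 5, -0.0074 testing only genes above background, -0.30 by DESeq2, -0.0016 by limma-voom), Ikbkb (-0.046 with RLE, -0.045 by DESeq2), Nfkb2 (0.010 by limma-voom), Nfkbib (0.0037 with TMM on all genes, 0.019 with upper-quartile factors, 0.012 with totals, 0.0051 with the strict filter) and Tnip1 (-0.015 with TMM on all genes, -0.049 with RLE, -0.049 by DESeq2). Without a library it turned for 17 genes: Myd88 (-0.24 to 0.22), Irak1 (-0.059 to 0.14), Irak2 (-0.33 to 0.87), Traf1 (-0.58 to 0.49), Traf3 (-0.23 to 0.89), Tank (-0.55 to 0.24), Map3k14 (-0.96 to 0.30), Chuk (-0.20 to 0.18), Ikbkb (-0.59 to 0.81), Ikbkg (-0.043 to 0.39), Tbk1 (-0.12 to 0.26), Rel (-0.64 to 0.017), Nfkb1 (-0.24 to 0.098), Nfkb2 (-0.11 to 0.091), Nfkbia (-0.16 to 0.54), Nfkbib (-0.32 to 0.32) and Tnip1 (-0.27 to 0.37).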
